A study of Mus musculus with 4 samples.

Results

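Branched-chain amino acid and ketone oxidation was represented by 9 genes chosen by name: Bcat2, Bckdha, Bckdhb, Dbt, Bckdk, Ivd, Bdh1, Oxct1 and Acat1. Every probe set annotated to exactly 1 of these genes was taken, and 7 of the 9 genes were found, each with 1 probe set, among 8251 genes named on the array. Bdh1 and Acat1 had no probe set named for them, and their transcripts were not analysed here. All 7 passed the filter on low signal, which left 5653 genes. The arrays were 4 one-colour Affymetrix arrays of total RNA from mouse ventricle at baseline. ERRα knockout (ERRa ko, KO) ventricles supplied 2 arrays and wild-type (ERRa wt, WT) ventricles 2 arrays. ERRα, encoded by Esrra, is an orphan nuclear receptor that binds genes of mitochondrial energy metabolism, and the comparison asked how baseline transcript signals differ without it. The labels do not say whether the numbered samples were separate animals, so the p-values cover the spread among these arrays alone, and that spread can be technical. Strain, age and the part of the gene or of the body from which Esrra was deleted are not given in the sources used here.

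Leucine, isoleucine and valine are first transaminated in mitochondria and then oxidised by the branched-chain keto acid dehydrogenase, a complex built from an E1 component with α and β subunits, an E2 transacylase core and a shared E3 subunit. A dedicated kinase switches the complex off by phosphorylating E1α. Ketone bodies made in the liver are taken up by the heart and activated in its mitochondria by the transferase SCOT before they enter the citric acid cycle as acetyl-CoA.

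The targeted gene separated the genotypes. The weaker Esrra probe set read 83.6 and 55.2 on the KO arrays against 2688 and 2828 on the WT arrays, and the stronger read 922 and 1050.2 against 8598 and 8038.5 (probe set signal). The stronger probe set was 8.45-fold lower in KO and did not pass over all 7453 probe sets (limma adjusted p = 0.179). With signals below 110 set to that floor, the weaker probe set was at least 25.1-fold lower in KO. Both of its KO signals were set to the floor, so its p holds no spread between the KO arrays. The weaker probe set passed over all 7453 probe sets (limma adjusted p = 0.0441). With the floor at the 5th percentile it did not pass (limma adjusted p = 0.125). That call was lost without any 1 array (adjusted p from 0.442 without WT replicate 1 to 0.752 without KO replicate 2). Cardiac muscle markers were high on all arrays, with 7 of 8 listed genes measured at 13481 to 205416. Their summed signal was 716657 and 863443 in KO against 850432 and 856464 in WT. The summed signal of 6 of 8 adipocyte markers was 4486 and 5159 in KO against 3569 and 3202 in WT, and that of 5 of 5 fibroblast markers was 81692 and 85287 against 59762 and 69834. For 5 of 5 endothelial markers it was 9933 and 9843 in KO against 14412 and 11431 in WT. Summed signals were 17396 and 17050.1 in KO against 10715 and 8885 in WT for 4 of 4 atrial markers, and 22412 and 14298 against 8035 and 6474 for 4 of 4 smooth muscle markers. Those of 5 of 5 leukocyte markers were 12135 and 11173 in KO against 10080 and 9502 in WT, and those of 3 of 4 liver markers 957 and 848 against 326 and 599.8. The sums of 3 of 4 erythroid markers, 157613 and 223307 in KO against 204418 and 148883 in WT, overlapped, and 5 of 5 skeletal muscle markers gave 12794 and 14475 against 14434 and 14560.2, with Myh2 below the floor on all arrays. None of these markers was at 0. A sum can rest mostly on 1 gene, so it does not say how many of its markers differ. The highest single signal was 215951 for the erythroid, 58177 for the fibroblast, 18753 for the smooth muscle and 12525 for the skeletal muscle markers. In the skeletal muscle list Ckm alone averaged 11951 over the 4 arrays. The β-actin ratio of 5' to 3' signal, a sign of RNA integrity and labelling, was 0.694 and 0.813 on the KO arrays against 0.966 and 0.909 on the WT arrays. The same ratio for GAPDH differed less, at 0.994 and 0.968 on the KO arrays against 1.039 and 1.015 on the WT arrays. The part of these differences in the results below was not tested, and in whole ventricle fewer cells of a type and less RNA per cell cannot be told apart.

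Most of the pathway's measured genes had lower signals in KO, with the β subunit of E1 as the exception. Of the 7 genes, 6 had a lower mean in KO, where 48.5% of all kept genes did, and 1 had a higher mean, where 51.5% did. Bckdha, Dbt, Bckdk, Ivd and Oxct1, 5 of 7, were lower without overlap, meaning that both KO arrays lay below both WT arrays, where 17.5% of all kept genes were. Bckdhb alone was higher without overlap, where 19.9% of all kept genes were, and Bcat2 overlapped. The median log2 difference of the 7 genes, KO minus WT, was -0.29, beside 0.01 over all 5653 kept genes. No gene passed over all probe sets (limma adjusted p 0.722 to 0.885), and 0.0134% of probe sets passed in all. At an unadjusted limma p under 0.05 there was 1 of 7, Bckdha, where 6.51% of all kept genes were. The direction of the 7 genes is therefore described by their values and not by a test.

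**Figure D1:**
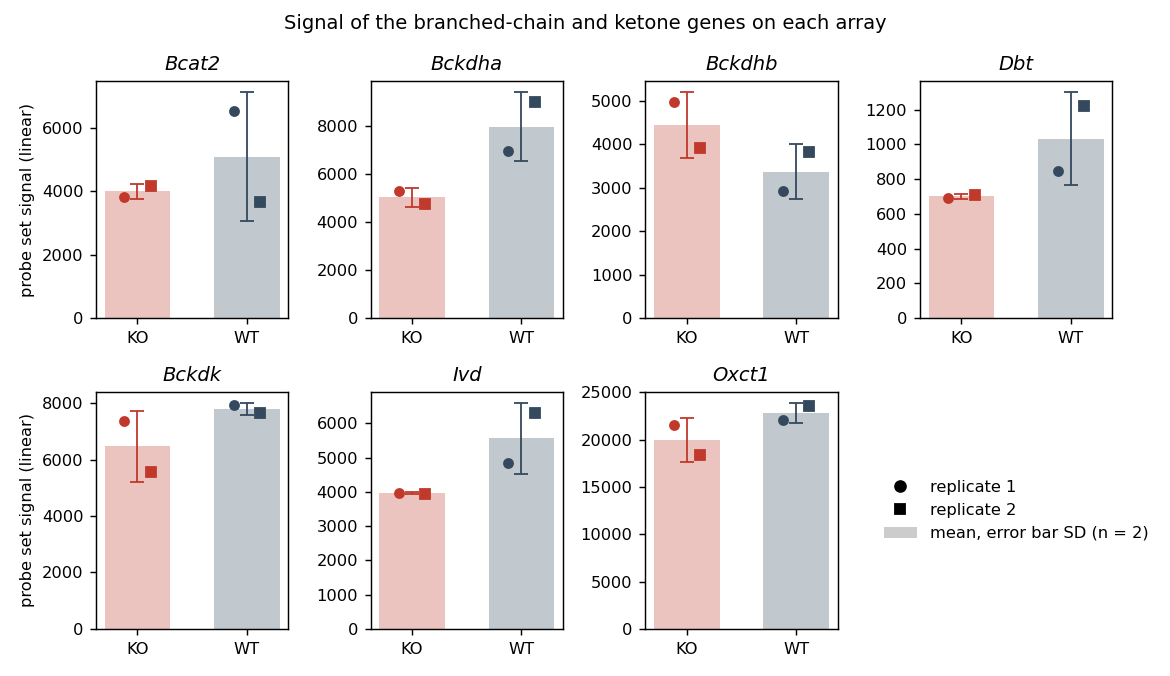
Probe set signal (linear axis from 0) of the 7 measured genes on each array, KO left of WT, with circles for replicate 1, squares for replicate 2, bars for group means and error bars for SD (n = 2). Both KO points lie below both WT points for Bckdha, Dbt, Bckdk, Ivd and Oxct1 and above them for Bckdhb, while the WT points of Bcat2 at 6520 and 3648 lie either side of its KO points.

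Bcat2 encodes the mitochondrial branched-chain aminotransferase, which catalyses the first step. It read 3821 and 4168 on the KO arrays against 6520 and 3648 on the WT arrays. The KO arrays lay close together and the WT arrays lay either side of them. Its log2 difference of -0.29 (SE 0.34, limma adjusted p = 0.885) was smaller than the gap of 0.84 between the WT arrays, and it was 0.13 without WT replicate 1.

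The E1 subunits of the dehydrogenase had opposite signs. Bckdha, which encodes E1α, the subunit that carries the regulatory phosphorylation, read 5317 and 4739 on the KO arrays against 6966 and 8986 on the WT arrays. Both KO arrays were low, and the groups did not overlap. Group means were 5028 ± 409 in KO and 7976 ± 1429 in WT (SD, n = 2 each). The log2 difference was -0.66 (SE 0.24, 95% interval -1.28 to -0.03, limma adjusted p = 0.722), which is a 1.58-fold lower signal and exceeds the replicate gaps of 0.17 in KO and 0.37 in WT. It was the single gene of the 7 that differed by 1.5-fold or more without overlap, where 4.19% of all kept genes were lower to that extent and 6.23% higher. Bckdhb, which encodes E1β, read 4969 and 3903 on the KO arrays against 2917 and 3818 on the WT arrays. The lower KO array stood just above the higher WT array, so the groups were separated by little. Its log2 difference of 0.40 (SE 0.26, 95% interval -0.29 to 1.09, adjusted p = 0.820) was about the size of the replicate gaps of 0.35 in KO and 0.39 in WT. It was 0.23 without KO replicate 1, 0.21 without WT replicate 1 and 0.59 without WT replicate 2. After median scaling of the arrays it was 0.28 and the groups overlapped.

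The divergence of the E1 subunits was also read as a ratio within each array, which no linear scaling of a whole array can move. Because Bckdha was lower and Bckdhb higher without overlap, their ratio had to separate the genotypes and is no further evidence. The log2 ratio of Bckdha over Bckdhb was 0.10 and 0.28 on the KO arrays against 1.26 and 1.23 on the WT arrays. The difference of -1.06 corresponds to a 2.08-fold lower ratio in KO, and the SD between replicates was 0.13 in KO and 0.01 in WT. The ratio was picked out after the values were seen, from 21 pairs of the 7 genes. It had the largest difference of the 21, and 9 of the 21 ratios separated the genotypes without overlap. Those of Bckdhb with Bckdha, Dbt, Bckdk, Ivd and Oxct1 had to separate, as Bckdhb was higher and the others lower without overlap. The share over pairs of all kept genes was not computed, so the count of 9 has no background beside it. The SDs of a pair picked after the values were seen do not measure its precision. With 2 arrays a genotype the smallest two-sided p of an exact permutation test is 0.33, and the ratio was not tested. Because probe sets differ in how they bind, the level of the ratio has no meaning of its own, and only its difference between genotypes was read.

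Dbt encodes the E2 core on which the complex assembles. It read 689.6 and 711 on the KO arrays against 844 and 1221 on the WT arrays. The KO arrays were nearly equal and both lay below WT, and WT replicate 2 stood well above the other arrays. The log2 difference of -0.54 (SE 0.26, adjusted p = 0.781) was as large as the gap of 0.53 between the WT arrays. The log2 ratio of Bckdha over Dbt was 2.95 and 2.74 in KO against 3.04 and 2.88 in WT, with overlap, while that of Bckdhb over Dbt was 2.85 and 2.46 in KO against 1.79 and 1.64 in WT, without overlap. The first ratio differed by -0.12 between genotypes and the second by 0.94. Because Bckdhb was higher and Dbt lower without overlap, the second ratio had to separate the genotypes and is no further evidence. Dld, the shared E3 subunit, named here for its role, had a log2 difference of -0.15 (SE 0.21, adjusted p = 0.911).

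**Figure D2:**
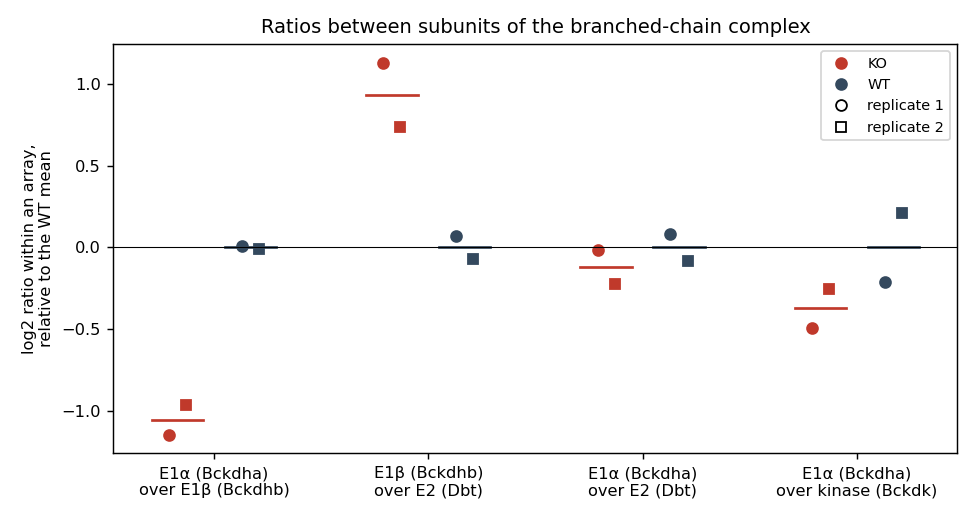
Log2 ratio between pairs of probe sets within each array, set to 0 at the WT mean of each pair, with KO points and means left of WT, circles for replicate 1 and squares for replicate 2. The ratio of E1α over E1β is lower in KO by 1.06 and that of E1β over E2 is higher by 0.94, while E1α over E2 overlaps between genotypes. The separation of both ratios with E1β follows from the signals of the single genes.

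Because Bckdha and Bckdhb lay on opposite sides, the 250 bases before their start sites are shown, from RefSeq on build GRCm38.p6, with the capitals marking the nuclear receptor half-site AGGTCA. The Bckdha stretch is chr7:25658762-25659011 on the minus strand, and the Bckdhb stretch is chr9:83924887-83925136 on the plus strand.
Bckdha: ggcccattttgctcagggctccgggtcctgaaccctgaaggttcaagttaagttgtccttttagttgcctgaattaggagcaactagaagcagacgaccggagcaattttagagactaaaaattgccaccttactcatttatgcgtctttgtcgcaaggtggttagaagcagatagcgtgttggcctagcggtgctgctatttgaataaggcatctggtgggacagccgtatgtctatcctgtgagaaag
Bckdhb: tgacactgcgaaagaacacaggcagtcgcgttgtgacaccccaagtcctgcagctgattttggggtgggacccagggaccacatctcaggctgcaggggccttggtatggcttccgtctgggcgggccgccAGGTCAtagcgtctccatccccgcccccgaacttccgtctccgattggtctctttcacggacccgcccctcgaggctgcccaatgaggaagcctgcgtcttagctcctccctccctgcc
The ERR response element TNAAGGTCA was searched on both strands in windows of 300 bases around the start sites, 10 windows of 7 of the 9 genes: Bcat2, Bckdhb and Bdh1 with 2 each and Bckdha, Bckdk, Ivd and Oxct1 with 1 each. Dbt and Acat1 were not searched. It was in 0 of the 10, and 1.28% of all 32851 windows held it. Its core AAGGTCA, contained in the longer motif, was in 0 of the 10 and in 4.72% of all windows. The shorter half-site AGGTCA, contained in both and chosen after the values were seen, was in 1 of the 10 and in 16.3% of all windows. That match lay 119 bases before the Bckdhb start shown, on the plus strand, and the window of the other Bckdhb start, chr9:83948531-83948830, held none. A missing match says only that these letters are not in these windows. The Bckdhb stretch held 15 CpG dinucleotides and the Bckdha stretch 8.

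The kinase of the complex had a smaller log2 difference than its substrate subunit. Bckdk, which inactivates the dehydrogenase, read 7363 and 5571 on the KO arrays against 7945 and 7653 on the WT arrays. The WT arrays lay close together, and KO replicate 1 stood nearer to them than to KO replicate 2. The log2 difference of -0.28 (SE 0.24, adjusted p = 0.837) was smaller than the gap of 0.40 between the KO arrays. The log2 ratio of Bckdha over Bckdk was -0.47 and -0.23 in KO against -0.19 and 0.23 in WT, a difference of -0.37 without overlap, though KO replicate 2 and WT replicate 1 were close.

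Ivd encodes isovaleryl-CoA dehydrogenase, a flavoprotein that oxidises the leucine product after the dehydrogenase step. It read 3979 and 3943 on the KO arrays against 4838 and 6295 on the WT arrays. The KO arrays were almost identical and both WT arrays were higher. The log2 difference was -0.48 (SE 0.23, 95% interval -1.09 to 0.13, adjusted p = 0.777), larger than the gap of 0.38 between the WT arrays. Across the 4 arrays the centred log2 profiles of Ivd and Dbt were the closest of the 21 pairs, with a root mean square distance of 0.06, and those of Bcat2 and Bckdhb the farthest apart, at 0.58.

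Oxct1, which encodes SCOT, the mitochondrial transferase that commits ketone bodies to oxidation, had the smallest difference of the 7. It read 21585 and 18365 on the KO arrays against 22112 and 23579.6 on the WT arrays. KO replicate 1 was close to WT replicate 1 and KO replicate 2 was the low array. The log2 difference of -0.20 (SE 0.21, 95% interval -0.76 to 0.36, adjusted p = 0.872) was within the gap of 0.23 between the KO arrays, and the groups overlapped after quantile normalization.

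**Figure D3:**
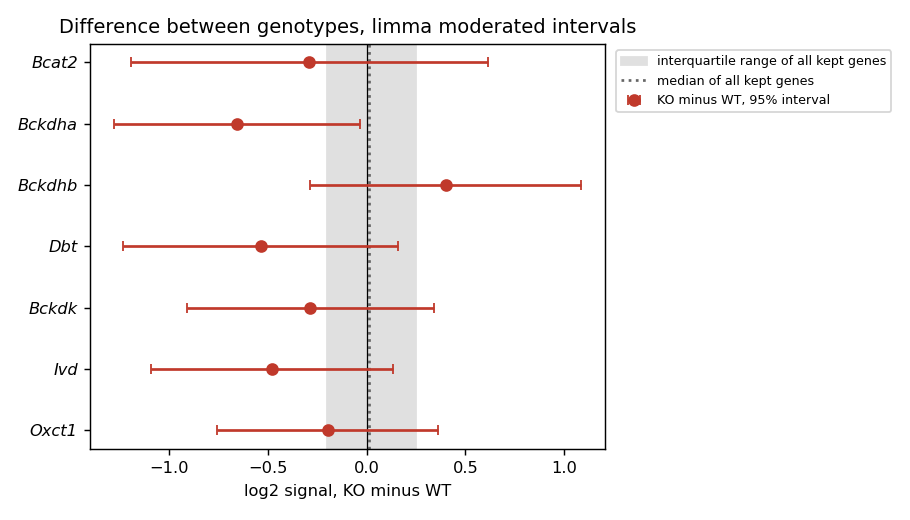
Log2 difference in signal (horizontal axis, KO minus WT) of the 7 genes with 95% intervals from limma, with a grey band from -0.20 to 0.25 for the interquartile range of all kept genes. The interval of Bckdha ends at -0.03, and the other 6 intervals hold 0.

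The arrays contributed unevenly. WT replicate 2 was the highest array for 4 of the 7 genes, Bckdha, Dbt, Ivd and Oxct1, and KO replicate 2 was the lowest for 4, Bckdha, Bckdk, Ivd and Oxct1. The median of the 7 centred log2 values was -0.21 and -0.25 on the KO arrays against 0.05 and 0.15 on the WT arrays, while the same median over all kept genes lay between 0.00 and 0.02 on every array. Both KO medians lay below both WT medians. Without WT replicate 2 the log2 differences of Bckdha, Dbt and Ivd were -0.47, -0.27 and -0.29. Without KO replicate 2 those of Bckdk and Oxct1 were -0.08 and -0.08.

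The genes most like Bckdha, which had the lowest p of the 7, were taken by the smallest root mean square distance of centred log2 values over the 4 arrays. Of 5652 genes, Hk2, a hexokinase of striated muscle, was nearest at 0.04, followed by Ttc7b at 0.04 and Hsdl2, a peroxisomal hydroxysteroid dehydrogenase-like protein, at 0.05. The median distance was 0.43. Hk2 read 10602 and 9391 on the KO arrays against 12960.4 and 16964 on the WT arrays. Hsdl2 read 6321 and 5221 on the KO arrays against 7911 and 10881.5 on the WT arrays, and its second probe set was lower in KO too (log2 -0.85). With so few arrays many genes can share a profile, and the likeness is a description.

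Other genes of branched-chain amino acid oxidation had lower means in KO for 8 of 11 kept genes, without any passing; 48.5% of all kept genes had one. Of 20 listed genes, 11 were measured and kept, with 0 past the threshold in either direction (limma adjusted p 0.711 to 0.986) and 1, Auh, at an unadjusted p under 0.05, where 6.51% of all kept genes were. Auh, Mmut, Hibch and Hsd17b10, 4 of the 11, were lower without overlap, beside 17.5% of all kept genes, and 0 were higher without overlap, beside 19.9%. The median was -0.15, beside 0.01 over all kept genes. Auh, the hydratase of the leucine branch, read 2833.5 and 2189 on the KO arrays against 3758 and 4183 on the WT arrays (log2 -0.67, SE 0.24). A weaker second Auh probe set had a log2 difference of 0.44 with overlap, so the gene's probe sets disagreed. Mmut, the mutase that turns methylmalonyl-CoA from valine and isoleucine into succinyl-CoA, read 1101 and 1815 on the KO arrays against 2071 and 2970.2 on the WT arrays (log2 -0.81, SE 0.35). Hibch and Hsd17b10, which act on valine and isoleucine, had log2 differences of -0.43 and -0.36 and were named after their values were seen.

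Other genes of ketone handling showed no common direction. Of 14 listed, 6 were measured and 5 kept, with 0 past the threshold (adjusted p 0.840 to 0.997), 0 at an unadjusted p under 0.05 and a median of 0.00. Acaa2 and Hmgcs1, 2 of the 5, were lower without overlap, beside 17.5% of all kept genes, and 0 were higher, beside 19.9%. Acaa2, a mitochondrial thiolase, read 107096 and 125341 on the KO arrays against 132372 and 141608 on the WT arrays (log2 -0.24, SE 0.21). Hmgcs1, the cytosolic synthase of the sterol pathway, read 857 and 876 on the KO arrays against 962 and 1055 on the WT arrays (log2 -0.22, SE 0.20). The monocarboxylate transporter gene Slc16a1 and its chaperone Bsg overlapped between genotypes. Slc16a7, a second monocarboxylate transporter, was under the filter, at 136 and 219 in KO against 42.6 and 31.8 in WT, with both WT arrays below the floor of 110.

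Amino acid carriers were lower in mean for 4 of 4 kept genes, beside 48.5% of all kept genes, with 0 past the threshold (adjusted p 0.722 to 0.993) and a median of -0.15. Slc38a2, a sodium-coupled carrier of small neutral amino acids, was the single one of the 4 lower without overlap, beside 17.5% of all kept genes, and at an unadjusted p under 0.05, beside 6.51%. It read 1709 and 2112 on the KO arrays against 2917 and 2863 on the WT arrays (log2 -0.60, SE 0.22), and its other 3 probe sets were under the filter. One of these ran the other way, at 185 and 125 in KO against 38.6 and 111 in WT, and the other two overlapped or lay below the floor of 110. Slc3a2, the heavy chain partner of the large neutral amino acid transporter, had a log2 difference of -0.20 (SE 0.23). Slc25a44, the mitochondrial branched-chain amino acid carrier and named here for its role, had -0.10 (SE 0.21). Slc7a8, a listed carrier under the filter and so not among the 4, ran the other way. It read 298 and 303 in KO against 80.3 and 69.9 in WT, with both WT arrays below the floor of 110.

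The list of the related pyruvate and oxoglutarate complexes, built on the same plan as the branched-chain one, had a median of 0.00 over 8 kept genes. The 8 include the kinases Pdk1 and Pdk4, and Dld, which is counted among the other branched-chain oxidation genes too. Of the 8 genes, 0 were past the threshold (limma adjusted p 0.791 to 0.997) and 0 at an unadjusted p under 0.05. Without overlap 1 was lower, beside 17.5% of all kept genes, and 1 higher, beside 19.9%, so these counts were near the background. A weaker second probe set of Dlat, the E2 of the pyruvate complex, read 942 and 762 on the KO arrays against 462 and 268 on the WT arrays (log2 1.27, SE 0.34, limma adjusted p = 0.694, unadjusted p = 0.0161), while the stronger one counted in the list had 0.11 with overlap. Pdha1, the pyruvate counterpart of Bckdha, read 32752 and 34278 on the KO arrays against 36205 and 51261.5 on the WT arrays (log2 -0.36, SE 0.26). Pdk4, a kinase that inactivates pyruvate dehydrogenase, read 32119 and 43337 on the KO arrays against 29640.5 and 21918 on the WT arrays (log2 0.55, SE 0.28). Bckdk, the kinase of the branched-chain complex, had the opposite sign at -0.28. Whether these differences themselves differ was not tested.

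**Figure D4:**
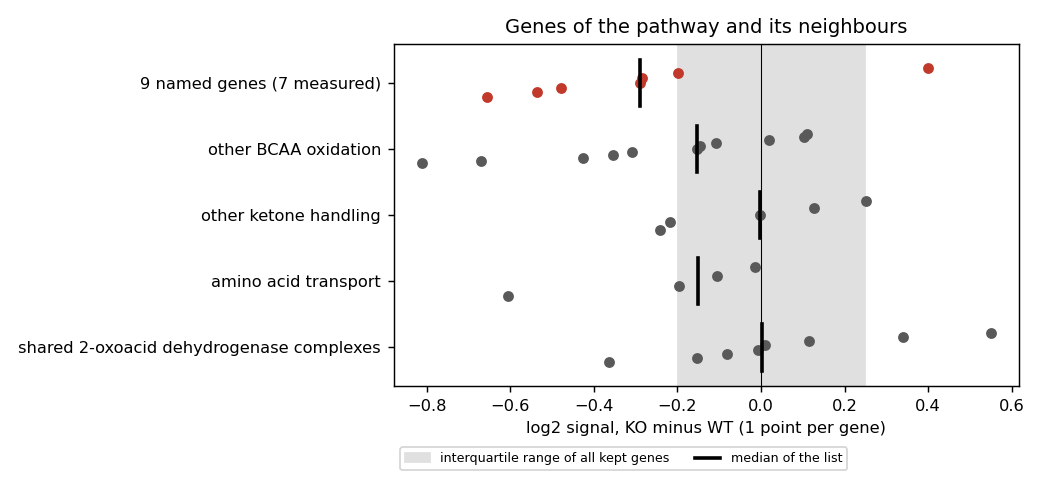
Log2 difference in signal (horizontal axis, KO minus WT) of each kept gene, 1 point per gene, for the 7 measured genes and 4 further lists, with a black bar for each list's median and a grey band for the interquartile range of all kept genes. The medians run from -0.29 for the 7 genes through -0.15 for other branched-chain oxidation and for amino acid carriers to 0.00 for ketone handling and for the related dehydrogenase complexes. Dld is a point both in other branched-chain oxidation and in the related complexes.

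Among transcriptional regulators named in the field, Ppargc1a, which encodes the coactivator PGC-1α, read 793 and 589 on the KO arrays against 368 and 435 on the WT arrays (log2 0.77, SE 0.25, adjusted p = 0.694). It lay higher without overlap, as did 19.9% of all kept genes. Ppara, a fatty acid receptor, overlapped (log2 -0.04). Of 9 listed regulators 3 were kept, Esrra, Ppargc1a and Ppara, and 2 of them had an unadjusted p under 0.05, beside 6.51% of all kept genes; 1 of the 2 is the targeted gene itself. Over the kept probe sets of highest mean signal 0 of the 3 passed, since the Esrra probe set that passed was the weaker.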

How the data were processed

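RNA of 4 mouse ventricle samples was measured on one-colour Affymetrix arrays from biotin-labelled cRNA, per the labels' protocols. The deposited values are a linear signal intensity per probe set, scaled by array: the mean without the top and bottom 2% was 1501 on every array. Software, summary method and build are not given in the sources used here.

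Of 12488 probe sets, 10855 had 1 gene symbol, 396 several and 1237 none, and 10839 matched RefSeq (GRCm38.p6). The 66 control probe sets and those with a mean below the 40th percentile (350.6) were left out, leaving 7453. A floor was set at the 20th percentile of all values (110) before log2. Genotypes, grouped by title, were fitted without pairing in limma 3.58.1 (R 4.3.3; lmFit, eBayes) with Benjamini-Hochberg adjustment over all 7453 and a threshold of 0.05. Counts over genes used the probe set of highest mean. The fit was tested on simulated data with 200 changed probe sets. The planted changes were larger than the differences of the measured pathway genes, so that test does not bear on differences of their size. The number of arrays limits the precision.

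The 9 genes, the 5 further lists and the markers were chosen with earlier results of these data known. The text names every probe set of the 9 genes and of Esrra, of each list any gene that passed and otherwise the 2 of lowest p, the 3 genes most like the one with the lowest p, and others for their role. Alternatives changed the floor, filter, scaling, prior, probe sets, replicate block and arrays.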

Additional observations from a re-analysis of the deposited data

How the results depend on the processing

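The 6 of 7 genes with a lower mean in KO were 5 or 6 under all 14 alternatives, and the 5 lower without overlap were 4 to 6 under 13. The share of all kept genes lower without overlap was not fixed either. It was 17.5% in the reported setting, 28.7% after median scaling and 32.3% to 33.2% without each array, so the count stands out less there. Of the 7 genes, 0 passed under any alternative, at adjusted p from 0.552 (Bckdha, no filter) upward. Bcat2 ran from -0.71 to 0.13 without each array, turning sign without WT replicate 1. The ratio of Bckdha over Bckdhb, examined under alternatives added after the data were seen, ran from -1.15 to -0.97. The median of the 7 genes was -0.41 after median scaling, which moved the median of all genes to -0.11, so the difference from all genes was -0.30 as in the reported setting; without each array it ran from -0.48 to -0.26. The count of probe sets past the threshold was 1, the weaker Esrra probe set. The count was 0 with the floor at the 5th or at the 40th percentile, with no filter and without cross-hybridizing suffixes. The weaker Esrra probe set carries such a suffix, so the last of these settings left it out. The count was 2 with the filter at the 60th percentile and with the trend and robust prior. Probe sets changed 1.5-fold without overlap numbered 823 (62.0% higher in KO; 48.2% after quantile normalization, 38.1% after median scaling), 1488 with no filter, 327 with the filter at the 60th percentile and 1383 to 1523 without each array. List medians, also added later, were -0.28 (other branched-chain oxidation) and -0.27 (carriers) after median scaling; without each array they ran from -0.32 to -0.10, for carriers from -0.31 to -0.13, for ketone handling from -0.22 to 0.21, for the related complexes from -0.10 to 0.10 and for regulators from -0.48 to 0.40, the last being -1.56 with the filter at the 60th percentile. With the sample number as a replicate block, 0 probe sets passed and the Esrra difference stayed at -4.65 (adjusted p = 0.263); deviations of same-numbered samples correlated at 0.0113, so the numbers were not taken as pairs. Where no value bears on a move, the cause was not tested.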
